A study of Durio zibethinus with 9 samples.

Results

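Durian pulp of the ripening stage (RS, 127 days) was compared with pulp of the young stage (YS, 90 days). The members of the comparison are the 3 RS libraries (RS_01 to RS_03) and the 3 YS libraries (YS_01 to YS_03), the libraries that carry these stages in the labels, and they make up 6 of the 9 libraries of the study. All fruits were of Durio zibethinus cultivar D24 and none had any other treatment in the labels. YS fruits were sampled directly, whereas RS pulp came, by the study's methods, from mature fruits that had been left at room temperature until they ripened, so that age and storage off the tree changed together and cannot be told apart here. The study described its samples as a triplicate and named neither the tree nor the fruit behind each library. Pulp was parted from husk and seeds before RNA isolation, and poly(A) RNA was sequenced. The remaining stage, mature pulp of 120 days (MS, 3 libraries), enters as levels set beside those of YS and RS. It also enters the filter for tested genes and an alternative fit. Every fold change below is RS over YS.

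Durian is a climacteric fruit, in which a burst of the gas ethylene accompanies ripening. Ethylene is made from methionine by way of S-adenosylmethionine and 1-aminocyclopropane-1-carboxylate (ACC), and it acts through receptors, a kinase and a cascade that ends in ethylene-responsive transcription factors (ERF). During ripening the flesh softens as pectin and hemicellulose of the cell walls are cut, starch and sucrose are turned into sugars, and volatile esters and sulfur compounds form the smell. In durian much of the odour comes from sulfur volatiles, for which methionine gamma-lyase releases methanethiol from methionine. Abscisic acid, a hormone of seed maturation and drought, also rises in the ripening of many fleshy fruits.

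Levels are given as FPKM, fragments scaled by gene length and library size, which the authors deposited for each gene and library, so levels of different genes can be set side by side per length. Genes absent from a table are written as 0. In each triple of values the libraries stand in the order 01, 02 and 03. Fold changes are on the scale log2(FPKM + 1), which understates changes of weakly expressed genes. Rose and fell are used of genes whose log2 fold change exceeded 1.5 in size at an adjusted p under 0.05 in limma, adjusted by the Benjamini-Hochberg method over the 21598 genes of the test. With 3 libraries per stage an exact permutation test of a gene on its own cannot give a p under 0.1, so the p-values rest on the spread shared across genes. They measure only the spread between these libraries. In pulp as a whole, fewer cells of a type and less RNA per cell cannot be told apart.

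The mapped bases, taken from the ratio of coverage to FPKM, were 2619 to 3553 Mb in the YS libraries and 2350.2 to 2756 Mb in the RS libraries. RS_03 stood apart. Only 15171 genes reached 1 FPKM in it, while 19471 to 21667 did so in each of the other 5 libraries. The log2 value of a tested gene in RS_03 was lower than the mean of RS_01 and RS_02 by a median of 0.72, and 90.9% of tested genes were lower in RS_03 than in both. A run of 5 neighbouring genes without a product name, LOC111291563 to LOC111291567, took 17.9% of the FPKM of RS_03, against 0.526% to 3.25% in the other 5 libraries. Since FPKM are shares of a library, a larger share in these genes leaves less for all others, and its part in the shift of RS_03 was not tested. The 7 ribosomal RNA genes took 1.17% of the FPKM of RS_03, against 0.0342% to 0.246% in the other 5. RS_01 and RS_02 lay close together, with an SD of 0.13 for the log2 difference over 3940 genes, while the YS libraries differed from each other by an SD of 0.74 to 0.88. Results are therefore given with and without RS_03. No gene in the tables is known to define durian pulp. A list of 5 genes stood for seed and green husk tissue, and its 4 tested members summed to 18.8 to 165 FPKM at YS and 19.1 to 24.1 at RS. SLE1 (LOC111294535), named after a seed protein of soybean, made up most of it at YS with 164, 27.8 and 16.2 FPKM against 2.25, 3.29 and 1.499 at RS, and its fall of 3.73 (adjusted p = 0.00784) did not pass without RS_03. The gene of transcription activator GLK1 (LOC111298473), which drives chloroplast development, lay at 0.0864, 0 and 0 FPKM at YS and 1.29, 1.04 and 1.04 at RS, and did not pass (1.05), nor did protein PHOTOSYSTEM I ASSEMBLY 2 (LOC111286552, -0.89). Stress enhanced protein 2 (LOC111300662), a protein of chloroplasts, rose from 0.439, 0.416 and 1.52 to 16.1, 14.4 and 21.3 FPKM (3.39, adjusted p = 0.000631). The part of such tissue in the results below was not tested.

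From YS to RS 625 genes rose (2.89% of those tested) and 2022 fell (9.36%). Without RS_03 660 genes rose (3.06%) and 1002 fell (4.64%). A total of 499 genes (2.31%) rose and 997 (4.62%) fell both with and without RS_03. Both fits share all libraries but RS_03, and without it RS rests on RS_01 and RS_02, which lay close together. Whether these come from separate fruits is not stated. Of the YS libraries, YS_02 moved the count of falls most, and without it 426 genes rose (1.97%) and 1132 fell (5.24%). With FPKM divided by size factors, which remove a shift shared by most genes, 1033 rose (4.78%) and 1414 fell (6.55%), so that the share of rises among the calls went from 23.6% to 42.2%. Over all genes of the test the median change was -0.35 on the log2 scale as deposited, -0.085 without RS_03 and -0.019 with size factors, and each fold change below contains this shared shift. All 3 RS libraries lay above all 3 YS libraries in 8.78% of tested genes and below them in 29.1%. For RS_01 and RS_02 alone these shares were 23.2% and 29.3%. Among the 2647 genes that rose or fell, 2635 had stages that did not overlap. Lack of overlap in a gene that passed therefore adds little to its call. Of the genes that rose, 195 had a mean of at least 100 FPKM at RS, and of those that fell, 207 had at least 100 FPKM at YS. Changes beyond 4 on the log2 scale were found for 104 genes that rose and 110 that fell. The genes named in the text by their size of change passed with and without RS_03, unless stated otherwise.

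The largest rise belonged to a polygalacturonase-like gene, LOC111311521, whose product class cuts the pectin backbone. It had 0.117, 0.0748 and 0.129 FPKM at YS and 1341, 1319.7 and 41.2 FPKM at RS. The RS libraries all lay far above the YS libraries, but RS_03 held 32.3 times less than the mean of the other RS libraries. The log2 fold change was 8.57 (standard error 1.09, adjusted p = 0.00124), and 10.23 without RS_03. Mavicyanin-like LOC111292651, of a family of small copper proteins, followed with 0.722, 0.422 and 0.365 FPKM at YS and 476, 515 and 297 at RS, a rise of 8.13 (standard error 0.36, adjusted p = 5.99e-06). The acyl-CoA-binding protein-like gene LOC111303063, of a family that carries acyl-CoA esters, went from 0.138, 0 and 0.0565 to 186, 213 and 178 FPKM and rose by 7.504 (standard error 0.32, adjusted p = 5.99e-06). In these 3 genes no YS library reached 1 FPKM.

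In a further set of the largest rises, YS_01 lay above the other YS libraries. The bidirectional sugar transporter N3 gene LOC111318443, of the SWEET family that lets sugars pass membranes, had 29.6, 0.885 and 0.362 FPKM at YS and 1249.7, 1075 and 341 at RS, a rise of 7.49 (adjusted p = 0.0017). An ERF, LOC111306880, had 58.8, 4.73 and 1.09 FPKM at YS and 714, 696 and 682 at RS, a rise of 6.29 (adjusted p = 0.00278). LOC111293555, named as benzyl alcohol O-benzoyltransferase-like, belongs to enzymes that make benzoate esters. It had 11.8, 0.8505 and 0.0165 FPKM at YS and 215, 205 and 191 at RS, a rise of 6.15 (adjusted p = 0.00108). The same order held for the gene of a probable 9-cis-epoxycarotenoid dioxygenase (NCED), LOC111280882, and for transmembrane protein 45A-like LOC111285498. NCED, which commits carotenoids to abscisic acid, had 12.8, 0.408 and 0.222 FPKM at YS and 169, 151 and 168 at RS, a rise of 5.83 (adjusted p = 0.00158). LOC111285498 had 25.04, 3.48 and 2.74 and 643, 660.2 and 178 FPKM, a rise of 5.80 (adjusted p = 0.00135). In none of these 5 genes did the stages overlap, as in nearly all genes that passed. A probable glutathione S-transferase and a class I heat shock protein, described with their families below, complete the 10 largest rises. Over all 625 genes that rose, YS_01 was the highest YS library in 66.4%, against 30.98% of all tested genes, and over the 2022 genes that fell it was the highest in 16.5%. These shares are a description, since the same libraries set the calls.

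**Figure D1:**
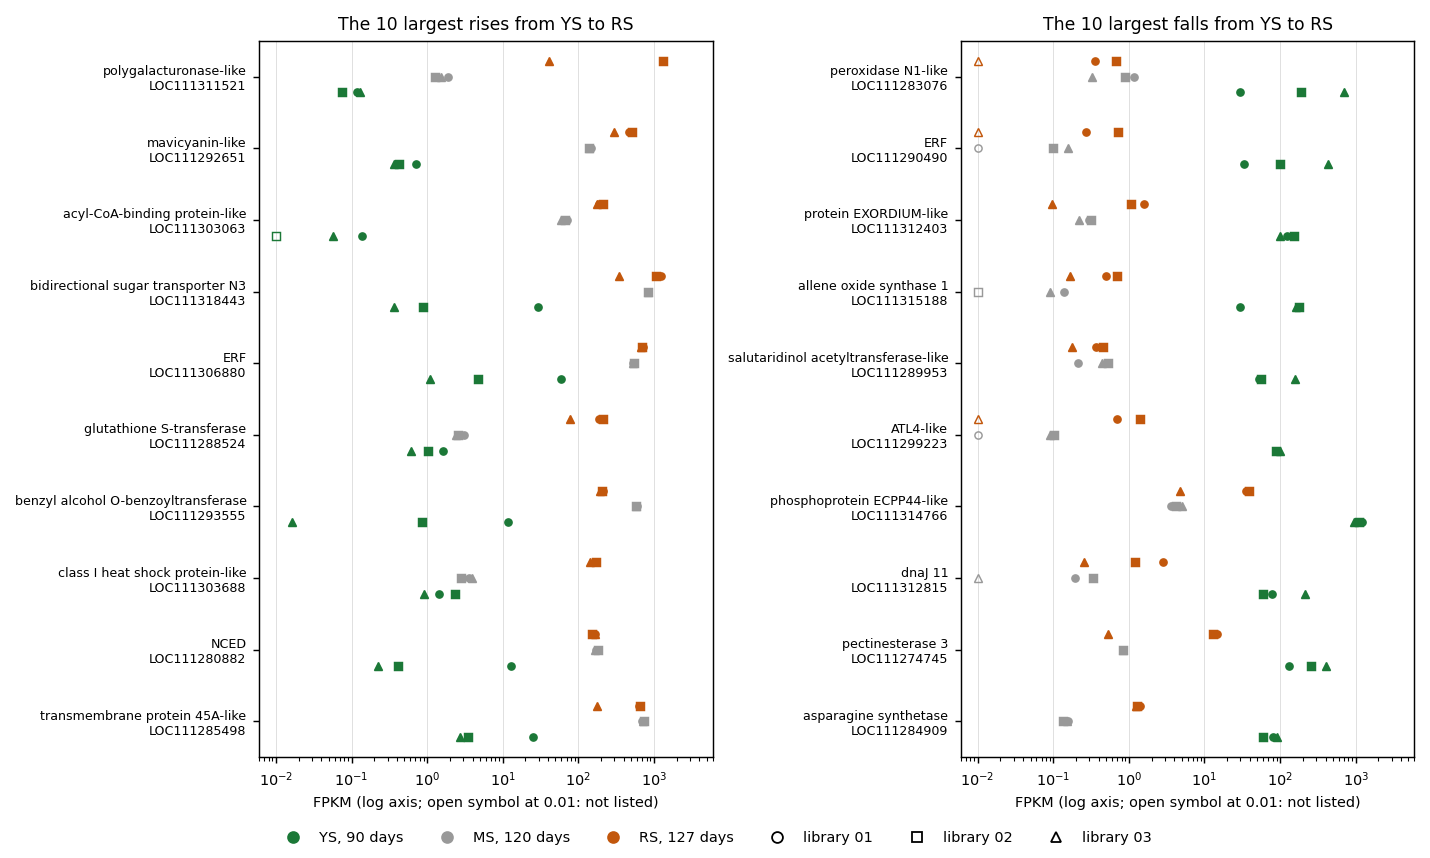
FPKM (log axis) of the named products, the 10 largest rises (left) and the 10 largest falls (right) from YS to RS, 1 symbol per library, with MS between the stages compared. In all 20 genes the RS libraries lie apart from the YS libraries, as in nearly all genes that passed. RS_03 is the lowest RS library in most of the 20 (41.2 FPKM against 1320 and more for polygalacturonase-like LOC111311521). MS lies near RS for some genes and near YS for others.

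The largest fall among genes with a product name was that of peroxidase N1-like LOC111283076, a secreted oxidase of the kind that acts on wall phenolics. It had 29.4, 192 and 703 FPKM at YS and 0.358, 0.6704 and 0 at RS. The fall by 6.93 on the log2 scale (standard error 0.90, adjusted p = 0.00132) left all 3 RS libraries under 1 FPKM. An ERF, LOC111290490, fell by 6.46 (adjusted p = 0.000832), from 32.99, 101 and 427 to 0.274, 0.727 and 0 FPKM. YS_03 was the highest and YS_01 the lowest library for this pair of genes, with YS levels that differed by more than 10 times, yet the stages did not overlap. EXORDIUM-like LOC111312403, named after a growth gene of Arabidopsis, was even across YS, with 122, 153 and 98.6 FPKM against 1.59, 1.07 and 0.0949 at RS, and fell by 6.10 (standard error 0.41, adjusted p = 4.64e-05). Allene oxide synthase 1 LOC111315188, which makes the precursor of jasmonate, had 29.4, 176 and 164 FPKM at YS and 0.503, 0.704 and 0.165 at RS and fell by 6.06 (adjusted p = 0.000392). All 3 RS libraries of both genes were under 2 FPKM.

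Asparagine synthetase LOC111284909, which stores nitrogen as asparagine, went from 81.2, 60.2 and 91.8 to 1.404, 1.27 and 1.24 FPKM and fell by 5.07 (standard error 0.34, adjusted p = 4.64e-05). Its RS_03 value was close to the other RS libraries, and its fold change without RS_03 was -5.05. E3 ubiquitin-protein ligase ATL4-like LOC111299223, of a class that tags proteins for breakdown, was also even at YS, with 90.2, 88.9 and 100.2 FPKM against 0.704, 1.39 and 0 at RS, and fell by 5.88 (adjusted p = 4.64e-05). Phosphoprotein ECPP44-like LOC111314766, of the dehydrin kind, was the most abundant of the 10 at YS, with 1212, 1119 and 960.4 FPKM, and held 35.3, 39.1 and 4.72 FPKM at RS, a fall of 5.75 (adjusted p = 0.00075). Salutaridinol 7-O-acetyltransferase-like LOC111289953, of an acyl transferase family, fell by 5.90 from 53.5, 56.6 and 158 to 0.368, 0.449 and 0.174 FPKM (adjusted p = 0.000102). Chaperone protein dnaJ 11 and pectinesterase 3 were the other two and are given with their families.

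Among genes without a product name, the largest rises were those of LOC111275239 (7.09), LOC111289500 (6.89) and LOC111274599 (6.79). LOC111289500 was low in all YS libraries, with 3.97, 1.98 and 1.29 FPKM, and had 410.4, 427 and 317 FPKM at RS (adjusted p = 4.33e-05). LOC111275239 had 53.7, 0.482 and 0.119 FPKM at YS, with YS_01 again the highest, and 661, 609 and 563 at RS (adjusted p = 0.00437). The deepest falls were those of LOC111283487, from 229, 861 and 275 to 0.189, 0.7998 and 1.197 FPKM (-7.82, adjusted p = 4.64e-05), LOC111298656 (-6.03) and LOC111285182 (-5.94). None of these 6 genes had overlapping stages, which holds for nearly all genes that passed.

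The most abundant genes of either stage had no product name. At YS these were LOC111299579 and LOC111312573, at 22261, 23800.3 and 15640.3 and 11468, 17989.8 and 20374 FPKM. They fell to 3408, 3815 and 2431 and 2742, 2675 and 592 FPKM at RS, by 2.68 and 3.30 on the log2 scale (adjusted p = 0.00159 and 0.00552). LOC111289817 (9233, 2283 and 4537 FPKM at YS, 2200.1, 2465 and 2788 at RS) and LOC111301680 (6991, 2834 and 467 and 4502, 4642 and 4789 FPKM) overlapped between the stages and did not pass, and LOC111307641 fell by 1.66 (adjusted p = 0.0109), though not with size factors or without YS_02 (adjusted p = 0.0556). At RS, LOC111292022 held 11971, 12716 and 1829 FPKM against 211, 1423 and 69.9 at YS and rose by 4.56 (adjusted p = 0.0165). The other four leaders at RS were LOC111291563 to LOC111291566 of the run named above, on scaffold NW_019168398.1. LOC111291566 had 4588, 776 and 1579 FPKM at YS and 5301, 5938 and 23532 at RS, a log2 fold change of 2.35 that did not pass (adjusted p = 0.0513), and 1.66 without RS_03. LOC111291563 alone of the 4 passed (adjusted p = 0.0499), and it did not pass without YS_02 (adjusted p = 0.185), YS_03 (adjusted p = 0.105) or RS_03 (adjusted p = 0.178). LOC111291564 (2.39) and LOC111291565 (2.24) did not pass. None of these 4 genes had an entry in the gene table of the other durian assembly, and in all 4 RS_03 was the highest library.

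Pectin is the soft matrix of the wall, and its main chain is cut by polygalacturonases once pectinesterases have removed its methyl groups. Of 5 polygalacturonase and inhibitor genes, 3 were tested and 2 rose, with or without RS_03, where 2.89% and 3.06% of all tested genes rose. Beside LOC111311521, located on scaffold NW_019167937.1 from 1007587 to 1011384, the probable polygalacturonase LOC111274286 had 0.142, 0.000159 and 0 FPKM at YS and 30.99, 24.5 and 12.9 at RS, a rise of 4.42 (standard error 0.39, adjusted p = 0.000173). The polygalacturonase inhibitor-like gene LOC111311552, whose product class blocks such enzymes, was near 0 at both stages, with 1.01, 0.739 and 0 FPKM at YS and 0.413, 0.436 and 0.227 at RS, and did not pass (-0.16, standard error 0.37). At MS the levels were 1.88, 1.26 and 1.54 FPKM for LOC111311521 and 186, 182 and 186 FPKM for the inhibitor gene, so the order of enzyme and inhibitor at MS was opposite to that at RS. The 2 members that were not tested, LOC111283141 and LOC111296397, reached at most 6.66 FPKM in the 6 libraries. In RS_01, LOC111311521 held 1341 of the 1373 FPKM summed over the tested members, and in RS_03 41.2 of 54.3.

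Pectin esterases moved in both directions. Of 7 tested, 1 rose and 3 fell, and without RS_03 1 rose and 2 fell. Of all tested genes 2.89% rose and 9.36% fell, or 3.06% and 4.64% without RS_03. Pectinesterase 2-like LOC111304600 was absent or nearly so at YS, with 0, 0 and 0.0407 FPKM, and had 38.5, 33.5 and 4.67 FPKM at RS, a rise of 4.29 (standard error 0.65, adjusted p = 0.00275). Pectinesterase 3 LOC111274745 had 133, 260.1 and 411 FPKM at YS and 14.7, 12.97 and 0.527 at RS and fell by 5.13 (standard error 0.81, adjusted p = 0.00345). LOC111289825, which the study names pectin acetyltransferase 7-like, was the member of highest level. It went from 238, 569 and 926 to 70.4, 74.5 and 9.48 FPKM and fell by 3.71 (adjusted p = 0.0107). The pectin genes at RS were led by LOC111311521, LOC111289825 and LOC111304600 in RS_01 and RS_02. In RS_03 LOC111304600 and LOC111289825 held 7.704 and 7.64 times less than the mean of the other RS libraries.

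Xyloglucan endotransglucosylase/hydrolases (XTH) cut and rejoin xyloglucan, the tether between cellulose fibrils. Of 8 tested XTH genes none rose and 2 fell, with or without RS_03 (all tested genes: 9.36% and 4.64% fell). Without RS_02 4 of them fell, as did 1815 of all 21598 tested genes. The median log2 fold change of the XTH genes was -2.05, or -0.88 without RS_03. LOC111303423 had 611, 249 and 144 FPKM at YS and 22.99, 25.1 and 1.198 at RS and fell by 4.66 (standard error 0.89, adjusted p = 0.00784). LOC111313303 fell by 2.25 from 4.67, 7.199 and 3.73 to 0.275, 0.195 and 0.342 FPKM (adjusted p = 0.00316). Among 11 tested genes of xyloglucan synthesis, 1 rose and 6 fell, and 5 fell without RS_03, while 3 fell without YS_02 (5.24% of all tested genes). Of all tested genes 2.89% rose. Xyloglucan 6-xylosyltransferase 5 LOC111312616 went from 17.8, 75.4 and 44.6 to 6.09, 5.803 and 0.279 FPKM (log2 fold change -3.35, adjusted p = 0.0122), and galactosyltransferase MUR3-like LOC111314351 from 36.2, 48.1 and 39.9 to 9.44, 10.3 and 1.78 FPKM (-2.61, adjusted p = 0.00987). The first of them did not pass without YS_02 (adjusted p = 0.0563). Probable xyloglucan glycosyltransferase 12 LOC111279254, the most abundant, had 31.6, 57.8 and 67.7 FPKM at YS and 16.05, 15.4 and 2.97 at RS and fell by 2.30 (adjusted p = 0.0248), but not without YS_02 (adjusted p = 0.0925) or YS_03 (adjusted p = 0.0682). The gene that rose was probable xyloglucan galactosyltransferase GT11 LOC111285245, at 1.06, 0.849 and 0.356 FPKM at YS and 3.596, 5.51 and 3.52 at RS, which rose by 1.57 (adjusted p = 0.016), but not without YS_02 (adjusted p = 0.0545), YS_03 (log2 fold change 1.40) or RS_02 (adjusted p = 0.08).

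Cellulose synthase genes, which spin the fibrils of growing walls, included 11 tested members. Of these, none rose and 7 fell, and 4 of the 11 fell without RS_03 and as many without YS_02, against 9.36%, 4.64% and 5.24% of all tested genes. The list had a median log2 fold change of -2.43 and -1.92 with and without RS_03. Catalytic subunit 1 LOC111298977, the member of highest level, had 35.6, 105 and 103 FPKM at YS and 11.6, 11.4 and 1.91 at RS and fell by 3.26 (standard error 0.63, adjusted p = 0.00818). Catalytic subunit 2 LOC111299804 had 4.47, 47.5 and 16.6 FPKM at YS and 0.678, 1.096 and 0.323 at RS. Its fall of 3.32 passed (adjusted p = 0.00964) but not without RS_03, and YS_01 was the YS library nearest to RS. Endoglucanase 25-like genes, of the KORRIGAN kind that takes part in cellulose synthesis, fell too. LOC111275321 went from 29.9, 165 and 118 to 5.21, 7.04 and 0.913 FPKM and fell by 4.21 (adjusted p = 0.00406), and LOC111281000 fell by 2.79 (adjusted p = 0.0095), but not without RS_03. The remaining member, endoglucanase-like LOC111278395, had 1154, 49.9 and 13.95 FPKM at YS and 93.5, 97.8 and 39.3 at RS. YS_01 lay above, YS_02 among and YS_03 below the RS libraries, and the gene did not pass (-0.41).

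Of the other wall families, 3 of 8 beta-galactosidase genes fell (2 without RS_03, of which 1 was among the 3). For beta-glucosidase genes 1 of 4 fell, and for expansin genes 2 of 4. A last group, of arabinogalactan, proline-rich and EXORDIUM-like protein genes, had 5 of 6 that fell (3 without RS_03). It counts EXORDIUM-like LOC111312403, described above. None of these genes rose. Of the last group 3 also fell without YS_02, and of the first 5 fell without YS_01. Against these counts, 9.36% of all tested genes fell, 4.64% without RS_03, 5.24% without YS_02 and 2478 of 21598 without YS_01. Expansins loosen walls without cutting them, and expansin-like A2 LOC111298117 went from 76.1, 38.9 and 165 to 9.45, 10.3 and 0.342 FPKM, a fall of 3.89 (adjusted p = 0.0109). A further expansin-like A2 gene, LOC111308711, fell by 2.95 (adjusted p = 0.00115), while expansin-A15-like LOC111291010 (-0.98) and expansin-like B1 LOC111290971 (0.63) did not pass. Beta-galactosidase LOC111309977, which trims galactose from wall polymers, was the most abundant of its family, with 37.2, 122 and 89.99 FPKM at YS and 16.7, 16.2 and 9.41 at RS. It fell by 2.36 (adjusted p = 0.00994), but not without RS_03. Beta-galactosidase 1-like LOC111278980 fell by 3.13 from 4.79, 13.96 and 10.6 to 0.1599, 0.175 and 0.0953 FPKM (adjusted p = 0.00139). Beta-galactosidase 1 LOC111274630 went from 5.25, 19.7 and 34.95 to 1.65, 2.02 and 0.101 FPKM and fell by 3.01 (adjusted p = 0.012), but not without YS_02 (adjusted p = 0.0527) or RS_03 (adjusted p = 0.0732). Beta-glucosidase 42-like LOC111276820 fell by 2.14 (adjusted p = 0.00619). The other beta-glucosidase genes, 40-like LOC111318270 (-1.56) and the BoGH3B-like LOC111303852 (-0.55) and LOC111296009 (-0.063), did not pass. In the last group, LOC111277239, a proline-rich gene named after DC2.15, had 25.4, 143 and 16.98 FPKM at YS and 0.6602, 0.229 and 0 at RS and fell by 5.01 (adjusted p = 0.0016). Basic proline-rich protein-like LOC111277427 fell by 2.95 (adjusted p = 0.000925). Fasciclin-like arabinogalactan protein 2 LOC111314503 (-3.69) and EXORDIUM-like 2 LOC111309093 (-3.33) fell, but not without YS_02 (adjusted p = 0.0689) or RS_03 (adjusted p = 0.103) for the first and not without YS_02 (adjusted p = 0.102), YS_03 (adjusted p = 0.0787) or RS_03 (adjusted p = 0.137) for the other. Arabinogalactan peptide 13-like LOC111294910 did not pass (0.063). Callose, a beta-glucan of walls, is made by callose synthase and cut by glucan endo-1,3-beta-glucosidases, and of these 6 tested genes none rose or fell in limma, 2 had an unadjusted p under 0.05, and 1 rose without RS_03 and with size factors (LOC111295041, 1.75, at 0.246, 0.208 and 0.187 FPKM at YS and 2.71, 3.47 and 1.14 at RS). The others were glucan endo-1,3-beta-glucosidase genes LOC111306922 (0.65), LOC111312703 (-0.18), LOC111275649 (-1.66) and LOC111285741 (-1.26) and callose synthase 11-like LOC111278181 (0.74).

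**Figure D2:**
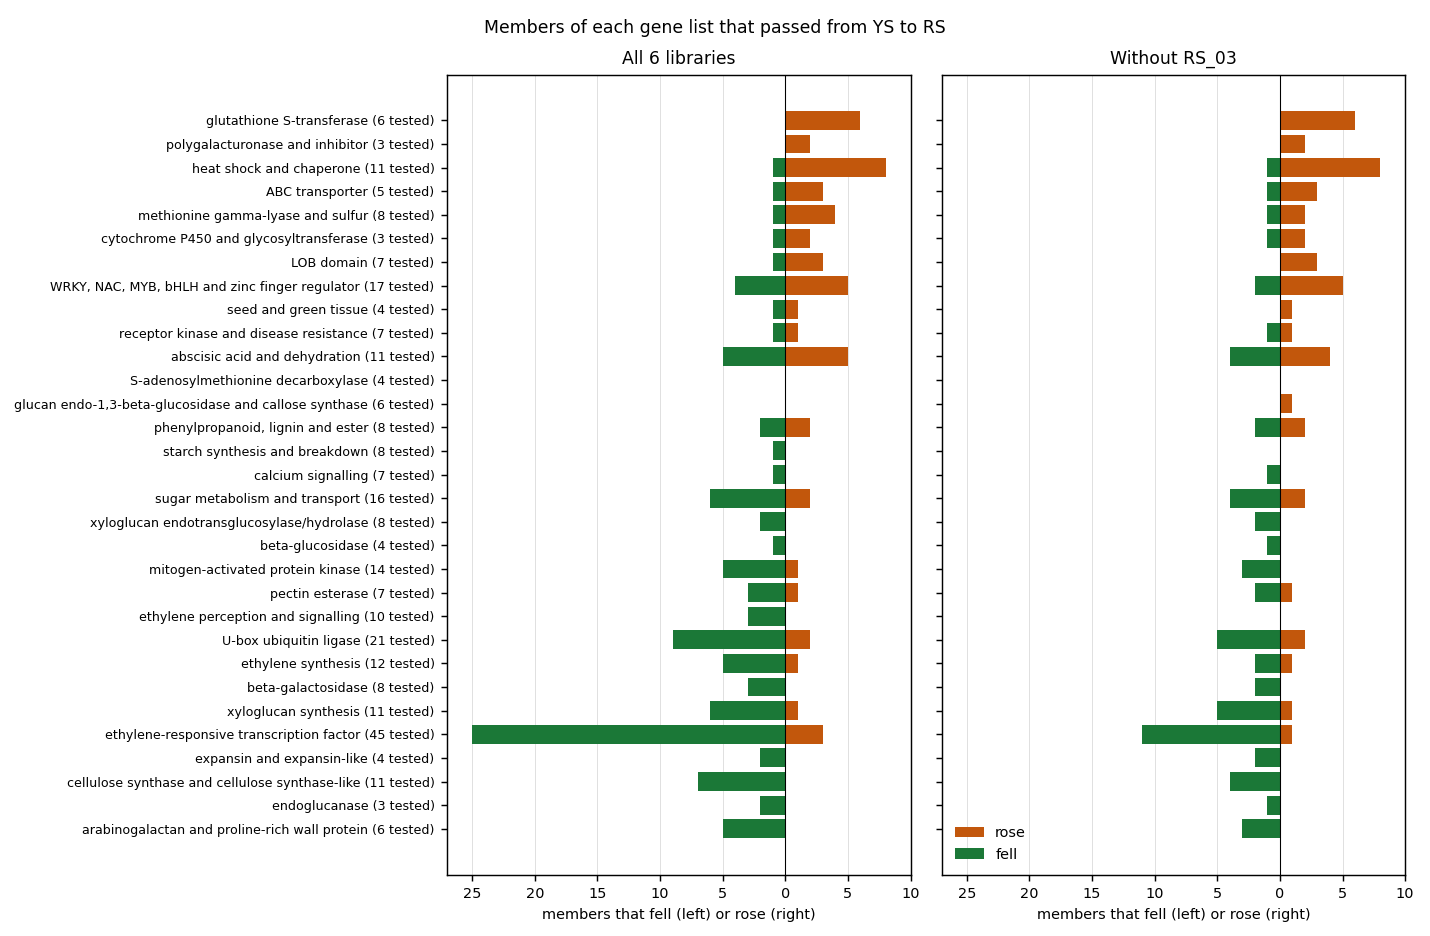
Number of members that rose (right of 0) or fell (left of 0) from YS to RS in each gene list with at least 3 tested members, with all 6 libraries (left panel) and without RS_03 (right panel). Glutathione S-transferases (6 of 6 rose) and heat shock genes (8 of 11 rose) pass with the same genes in both panels, while the falls of ERF genes go from 25 to 11 without RS_03.

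Ethylene synthesis genes were taken along the route. S-adenosylmethionine (SAM) synthases supply the precursor. SAM synthase 2 LOC111279193 had 218, 814 and 704 FPKM at YS and 32.03, 33.6 and 22.8 at RS and fell by 4.06 (standard error 0.50, adjusted p = 0.00108). A further SAM synthase 2 gene, LOC111304951, went from 97.5, 84.3 and 133 to 16.1, 17.6 and 4.53 FPKM and fell by 3.11 (adjusted p = 0.00334). SAM synthase 3-like LOC111293717 fell by 1.90 (adjusted p = 0.0345) but not without YS_02 (adjusted p = 0.142), YS_03 (adjusted p = 0.0783), RS_01 (adjusted p = 0.0559) or RS_03 (adjusted p = 0.109). Both SAM synthase 2 genes kept their fall without RS_03, at -3.89 and -2.54, and in both the stages lay apart.

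ACC synthases catalyse the step at which the route is committed. LOC111304783 had 31.9, 2.32 and 14.8 FPKM at YS and 111, 97.4 and 50.4 at RS and rose by 2.79 (standard error 0.73, adjusted p = 0.0287), though not without YS_02 (adjusted p = 0.0652), RS_01 (adjusted p = 0.0568) or RS_03 (adjusted p = 0.0812). Its lowest RS library lay above its highest YS library. LOC111300706 went the other way, from 1.11, 14.3 and 16.4 to 0.375, 0.245 and 0 FPKM (-2.79, adjusted p = 0.0253), but not without YS_02 (adjusted p = 0.107), YS_03 (adjusted p = 0.0718) or RS_03 (adjusted p = 0.118). The third, LOC111313897, had 0.377, 1.198 and 10.7 FPKM at YS and 2.97, 2.56 and 0.281 at RS, with overlapping stages, and did not pass. At RS LOC111304783 stood far above the other two.

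ACC oxidases turn ACC into ethylene. Of 6 genes, 1 fell and none rose. LOC111306707 had 14.8, 11.3 and 9.92 FPKM at YS and 48.4, 45.2 and 18.8 at RS, all RS libraries above all YS libraries. Its log2 fold change was 1.47 (adjusted p = 0.0434), under the fold threshold, and without RS_03 it rose (1.89, adjusted p = 0.016). The gene that fell, LOC111305273, went from 2.59, 4.68 and 14.6 to 1.16, 0.862 and 0.397 FPKM (-1.94, adjusted p = 0.0319), but not without YS_02 (adjusted p = 0.0787), YS_03 (adjusted p = 0.0646), RS_02 (adjusted p = 0.0558) or RS_03 (adjusted p = 0.119). LOC111314546 (38.8, 24.5 and 52.4 FPKM at YS, 22.9, 27.6 and 8.28 at RS), LOC111274040 (-1.14), LOC111296866 (-0.71) and LOC111317524 (-0.18) did not pass. LOC111296866 was high in YS_03 alone, at 1.24, 4.84 and 122.8 FPKM across the YS libraries. Over the whole route 1 of 12 genes rose and 5 fell, or 1 rose and 2 fell without RS_03, and the gene that rose then was LOC111306707 and not LOC111304783. Of all tested genes 2.89% rose and 9.36% fell, and 3.06% and 4.64% without RS_03. With size factors both genes rose and 5 of the route fell. Without YS_02 none of the 12 rose and 2 fell, without YS_03 1 rose and 2 fell, and without RS_01 none rose and 4 fell. Of the 21598 tested genes 1033 rose and 1414 fell with size factors, and 426 and 1132 without YS_02. Without YS_03 565 rose and 1841 fell, and without RS_01 474 and 1762. The 4 tested genes of SAM decarboxylase, which draws SAM into polyamine synthesis, did not pass (1 had an unadjusted p under 0.05 in limma), at log2 fold changes of -0.996 to 1.29. LOC111318202, their most abundant member, had 345, 380.3 and 446 FPKM at YS and 212, 237 and 146 at RS, and the others were LOC111282309 (-0.44), LOC111286226 (1.29) and LOC111287069 (0.38).

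**Figure D3:**
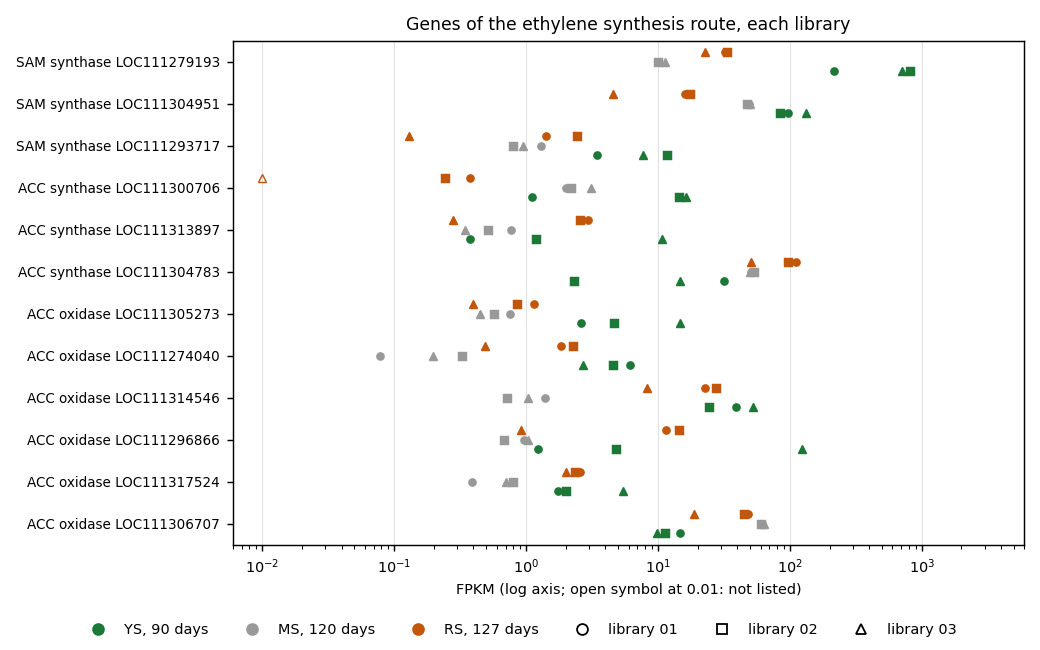
FPKM (log axis) of the 12 genes of the ethylene synthesis route in each YS, MS and RS library, ordered by step. The SAM synthase genes lie lower at RS than at YS, ACC synthase LOC111304783 and ACC oxidase LOC111306707 lie higher, and the stages overlap for several ACC oxidases.

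Of 10 tested genes of ethylene perception and signalling none rose and 3 fell, and none of the 10 passed without RS_03 or without YS_02, when 4.64% and 5.24% of all tested genes fell, against 9.36% with all libraries. Ethylene response sensor 1-like LOC111305038, a receptor, had 36.01, 89.1 and 162 FPKM at YS and 16.2, 16.6 and 10.3 at RS and fell by 2.44 (adjusted p = 0.0127), but not without YS_02 (adjusted p = 0.053) or RS_03 (adjusted p = 0.0697). Ethylene receptor-like LOC111288040 fell by 1.78 (adjusted p = 0.0143), but not without YS_02 (adjusted p = 0.0685) or RS_03 (log2 fold change -1.49). The most abundant receptor gene at RS, ethylene receptor 2-like LOC111306700, lay at 58.2, 34.9 and 47.4 FPKM at YS and 85.1, 82.97 and 18.2 at RS, and did not pass (0.15). Of 14 mitogen-activated protein kinase (MAPK) genes 1 rose and 5 fell, and none rose and 3 fell without RS_03, as also without YS_02. In these 3 fits 1.97% to 3.06% of all tested genes rose. The gene that rose, MAPK kinase kinase LOC111285643, had 25.6, 13.6 and 4.22 FPKM at YS and 56.8, 57.3 and 49.9 at RS (2.13, adjusted p = 0.0252), but did not pass without YS_02 (adjusted p = 0.0708), YS_03 (log2 fold change 1.497), RS_01 (adjusted p = 0.0522) or RS_03 (adjusted p = 0.0871). Another MAPK kinase kinase, LOC111275659, went from 50.999, 44.5 and 24.04 to 3.13, 2.39 and 1.88 FPKM (-3.51, adjusted p = 0.000631), and MAPK kinase kinase 18-like LOC111318818 from 21.1, 12.6 and 6.25 to 0.1196, 0.208 and 0 FPKM (-3.55, adjusted p = 0.001). The most abundant member, MAPK 3 LOC111284718, had 204, 339 and 323 FPKM at YS and 234, 241 and 188 at RS and did not pass.

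ERF genes formed the largest list, and their count depended on RS_03 and YS_02. Of 45 tested, 3 rose and 25 fell, with a median log2 fold change of -2.08, and without RS_03 1 rose and 11 fell, with a median of -1.87. Of all tested genes 2.89% rose and 9.36% fell, and without RS_03 3.06% and 4.64%. Without YS_02 1 ERF gene rose and 13 fell (1.97% and 5.24% of all tested genes), and with size factors 3 rose and 20 fell (4.78% and 6.55%). LOC111306880, described above, rose in each case. LOC111306123 had 15.4, 2.89 and 3.91 FPKM at YS and 41.6, 41.3 and 30.1 at RS and rose by 2.49 (adjusted p = 0.0117), but not without YS_02 (adjusted p = 0.0533) or RS_03 (adjusted p = 0.051). LOC111315585 fell from 171, 136 and 43.7 to 4.85, 4.54 and 0.664 FPKM (-4.75, standard error 0.62, adjusted p = 0.00136), with or without RS_03. The most abundant member at YS, LOC111280307, had 277, 1087 and 1212 FPKM at YS and 223, 239 and 137 at RS, and its fall of 1.88 (adjusted p = 0.0472) did not pass without YS_02 (adjusted p = 0.175), YS_03 (adjusted p = 0.129), RS_01 (adjusted p = 0.0705), RS_02 (adjusted p = 0.0589) or RS_03 (adjusted p = 0.164). At RS, LOC111306880 and LOC111314102 were the leading ERF genes. LOC111314102 had 283, 95.1 and 63.4 FPKM at YS and 713, 773 and 455 at RS and rose by 2.39 (adjusted p = 0.0156), but not without YS_02 (adjusted p = 0.0678) or RS_03 (adjusted p = 0.0513).

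Genes of LOB domain proteins, plant regulators of organ boundaries, included 3 of 7 that rose and 1 that fell, and 3 that rose and none that fell without RS_03, of which 2 were the same. Without RS_01, RS_02, YS_02 or YS_03, 2 rose (426 to 565 of all 21598 tested genes). Of all tested genes 2.89% rose, or 3.06% without RS_03. LOB domain-containing protein 18 LOC111304630 had 3.62, 0.803 and 0.177 FPKM at YS and 76.9, 69.4 and 57.98 at RS and rose by 5.004 (standard error 0.49, adjusted p = 0.000323). LOB domain-containing protein 1-like LOC111297059, the most abundant at RS, had 3.61, 2.35 and 9.86 FPKM at YS and 133, 133 and 57.5 at RS and rose by 4.20 (adjusted p = 0.001). LOB domain-containing protein 38-like LOC111316185 fell by 2.88 (adjusted p = 0.019), but not without RS_03. Of 17 further regulators 5 rose and 4 fell, or 5 rose and 2 fell without RS_03, against 9.36% and 4.64% of all tested genes that fell. Zinc finger protein ZAT12-like LOC111296606, known from stress responses in Arabidopsis, had 2.78, 0 and 0 FPKM at YS and 79.02, 88.95 and 75.7 at RS and rose by 5.72 (standard error 0.51, adjusted p = 0.000185). NAC domain-containing protein 100-like LOC111283735, of a family that holds ripening regulators in tomato, had 21.5, 14.3 and 11.1 FPKM at YS and 223, 243 and 164 at RS and rose by 3.69 (adjusted p = 0.000366). RS_03 was the lowest RS library in both. A further ZAT12-like gene, LOC111303611, had 157, 67.7 and 12.9 FPKM at YS and 244, 239 and 221 at RS, and did not pass (2.14). Among the falls were 2 genes of WRKY transcription factor 40, known from defence and wounding. LOC111281172 had 4.67, 79.7 and 216 FPKM at YS and 0.237, 0 and 0.0734 at RS (-5.40, adjusted p = 0.00813), and LOC111274387 1.38, 60.03 and 94.8 and 0.0647, 0.05805 and 0 FPKM (-4.53, adjusted p = 0.022). YS_01 held far less of both than YS_02 and YS_03, and LOC111281172 did not pass without RS_03 (adjusted p = 0.0667) nor LOC111274387 without YS_02 (adjusted p = 0.0941), YS_03 (adjusted p = 0.0596) or RS_03 (adjusted p = 0.114).

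In the list on abscisic acid and dehydration 5 of 11 genes rose and 5 fell, or 4 and 4 without RS_03 and 3 and 4 without YS_02, where 1.97% to 3.06% of all tested genes rose and 4.64% to 9.36% fell, and the members differed by role. On the side of synthesis, NCED LOC111280882 rose as described, and its RS levels were nearly equal in all 3 libraries. Breakdown is carried by abscisic acid 8'-hydroxylases, of which LOC111290894 fell and LOC111296235 rose. LOC111290894 had 39.8, 397 and 91.7 FPKM at YS and 8.84, 7.695 and 0.551 at RS (-4.49, adjusted p = 0.00842), and did not pass without RS_03 (adjusted p = 0.0559). LOC111296235 was unlisted in YS_01 and YS_02 and had 12.9, 13.1 and 1.54 FPKM at RS, a rise of 2.98 (adjusted p = 0.0104). Abscisate beta-glucosyltransferase-like LOC111291309, which stores the hormone as a glucose ester, went from 357, 517 and 540.3 to 64.01, 64.9 and 55.1 FPKM and fell by 2.90 (standard error 0.34, adjusted p = 0.000856). Of response genes, LOC111281364, a dehydration-responsive element-binding protein 1A-like regulator, fell from 334, 302 and 54.3 to 6.79, 6.82 and 1.43 FPKM (-5.07, adjusted p = 0.00193). C2-DOMAIN ABA-RELATED 4-like LOC111291144 rose by 2.45 (adjusted p = 0.00616), with 5.45, 1.29 and 1.39 FPKM at YS and 15.8, 17.4 and 17.8 at RS. BURP domain protein RD22-like LOC111302013 was listed in no YS table and had 4.43, 5.87 and 1.13 FPKM at RS, but did not pass without YS_02 (adjusted p = 0.0511). It was in no MS table either and so entered the test through RS alone, and its rise is a description only. Of 2 tested jasmonate genes, allene oxide synthase fell as described and 12-oxophytodienoate reductase 11 LOC111274382, a later step in the route, did not pass (-0.36). The lone tested auxin gene, YUCCA4 LOC111285374, did not pass (-1.57, adjusted p = 0.0594).

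Most of the listed heat shock and chaperone genes rose. Of 11 tested, 8 rose and 1 fell, with or without RS_03 (all tested genes: 2.89% and 3.06% rose, 9.36% and 4.64% fell). The median log2 fold change was 3.41 and 3.52, against -0.35 and -0.085 over all tested genes. The study printed most of the genes that rose as higher at RS than at MS in these libraries. Neither the count nor the median is therefore independent evidence of their direction. The RS_03 values of the list lay a median of 0.29 on the log2 scale below the other RS libraries, against 0.72 for all tested genes. The class I heat shock protein-like gene LOC111303688, a small chaperone that keeps damaged proteins soluble, had 1.42, 2.37 and 0.916 FPKM at YS and 167, 171 and 143 at RS and rose by 6.01 (standard error 0.35, adjusted p = 4.33e-05). LOC111299242, of the small heat shock proteins of class II, had 0.144, 0.628 and 0.106 FPKM at YS and 51.7, 64.01 and 39.5 at RS and rose by 5.35 (adjusted p = 4.64e-05). Heat stress transcription factor A-2-like LOC111299261, which switches on such chaperones, had 0.115, 0.185 and 0.3199 FPKM at YS and 43.2, 44.3 and 53.6 at RS, a rise of 5.31 (adjusted p = 4.33e-05). The small heat shock protein of the chloroplast LOC111287629 rose by 4.79 (adjusted p = 0.000158), and the hsp70 nucleotide exchange factor fes1-like gene LOC111294546 by 3.42 (adjusted p = 0.00209). Chaperone protein dnaJ 11 LOC111312815, a transcribed pseudogene in the other durian assembly, fell by 5.53 from 79.2, 59.8 and 211 to 2.83, 1.19 and 0.254 FPKM (adjusted p = 0.000343). RS fruits differed from YS fruits in storage at room temperature as well as in age, and the part of storage in these levels was not tested.

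Of the 8 heat shock genes that rose, 4 lie on scaffold NW_019167882.1 between positions 18802982 and 18864023, a span of 61.0 kb in the coordinates of the deposited tables. The span, bounded by list members, holds 26 genes, of which 14 were tested, 8 rose (against 2.89% of all tested genes) and none fell. LOC111303683, LOC111303687 and LOC111303691 were under 1 FPKM in every YS and MS library and so entered the test through RS alone, and the count is given as a description only. Its list members that rose were LOC111303688, LOC111303701 (3.41), LOC111303683 (3.39) and LOC111303682 (1.53), the last of which did not pass without YS_02 (adjusted p = 0.128), YS_03 (adjusted p = 0.0972), RS_01 (adjusted p = 0.106) or RS_02 (adjusted p = 0.12). LOC111302663, at the edge of the span, did not pass (1.44). Another 4 genes that rose there have no product name and were chosen by place after their values were seen. LOC111304339 had 0.561, 0.472 and 0.3501 FPKM at YS and 44.4, 48.8 and 39.6 at RS and rose by 4.95 (adjusted p = 4.64e-05). LOC111303699 (2.24) and LOC111303692 (1.83) rose less, the latter not without YS_02 (adjusted p = 0.154), YS_03 (adjusted p = 0.117), RS_01 (adjusted p = 0.122) or RS_02 (adjusted p = 0.114), and LOC111303691 was listed in no YS or MS table and had 2.48, 2.33 and 1.39 FPKM at RS, but did not pass without RS_01 (adjusted p = 0.0583) or RS_02 (adjusted p = 0.0563). Reads of neighbouring copies with like sequence may have been shared between genes, so the separate values are uncertain. LOC111303701 and LOC111302663 are pseudogenes in the other durian assembly. The glutathione S-transferase U8-like genes LOC111296619, LOC111296858 and LOC111296590 lie likewise together, on scaffold NW_019168492.1 from 25129091 to 25158826 (29.7 kb). The 3 genes bound a span of 5, all of which were tested and rose, against 2.89% of all tested genes. Since list members set both edges, this count too is a description only. The 2 without a product name, LOC111296620 (3.32) and LOC111296859 (2.47), lie on the opposite strand, and LOC111296859 did not pass without YS_02 (adjusted p = 0.0707) or YS_03 (adjusted p = 0.0518).

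**Figure D4:**
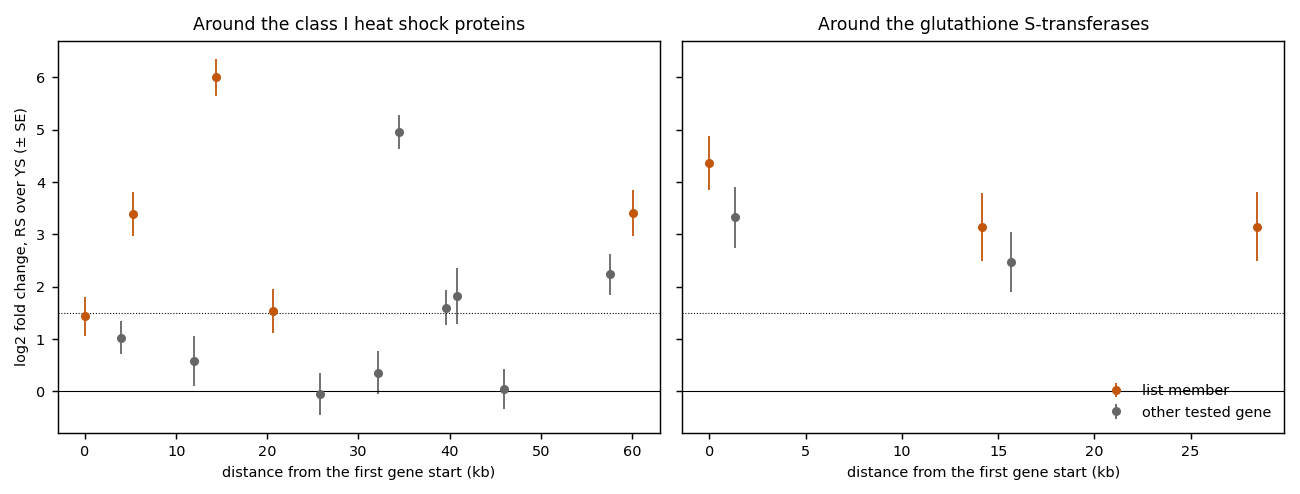
Log2 fold change from YS to RS (± standard error, n = 3 per stage) of the tested genes in the spans around the class I heat shock proteins (left) and the glutathione S-transferases (right), by distance in kb from the first gene start. Orange points are members of the lists, grey points other tested genes, and the dotted line marks 1.5. In the left span 8 of 14 genes rose and in the right span 5 of 5, against 2.89% of all tested genes. List members bound both spans, so these counts are a description only.

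All 6 glutathione S-transferase genes, whose enzymes couple glutathione to reactive or foreign molecules, rose with and without RS_03, against 2.89% of all tested genes, and the median log2 fold change was 3.76. The study chose these genes on these libraries, so the count is not independent evidence of their direction. LOC111288524 had 1.63, 1.02 and 0.619 FPKM at YS and 187, 212 and 77.98 at RS and rose most, by 6.16 (standard error 0.44, adjusted p = 7.37e-05). LOC111311985 (U8-like) had 5.87, 9.38 and 2.22 FPKM at YS and 189.996, 199 and 157 at RS and rose by 4.90 (adjusted p = 0.000211). It is listed as a transcribed pseudogene in the other durian assembly. LOC111296619 (U8-like) had 4.81, 10.9 and 11.96 FPKM at YS and 261, 306 and 96.5 at RS, a rise of 4.37 (adjusted p = 0.000835). The neighbouring U8-like genes LOC111296858 and LOC111296590 had nearly the same value as each other in every library, 47.9, 62.1 and 14.2 and 49.7, 64.9 and 14.7 FPKM at RS, so reads of 1 copy may have been shared between both, and their rises of 3.14 and 3.15 count as uncertain. LOC111298889, the most abundant member, was already at 88.2, 205 and 66.01 FPKM at YS and held 533, 511 and 237 FPKM at RS, a rise of 1.91 (adjusted p = 0.0297), which did not pass without YS_01 (adjusted p = 0.0633), YS_03 (adjusted p = 0.0843), RS_01 (adjusted p = 0.0834) or RS_02 (adjusted p = 0.0783) or with a pseudocount of 0.1 (adjusted p = 0.0560) or 5 (adjusted p = 0.0614). Their RS_03 values were lower than those of the other RS libraries, by a median of 1.44 on the log2 scale.

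Of 8 tested sulfur genes 4 rose and 1 fell, and 2 of them rose and 1 fell without RS_03, as also without YS_02. Of all tested genes 2.89% rose, 3.06% without RS_03 and 1.97% without YS_02. In the same order 9.36%, 4.64% and 5.24% fell. Among the methionine gamma-lyases (MGL), LOC111308047 was the most abundant by far, with 1086, 142 and 293 FPKM at YS and 2154, 2159 and 1954 at RS. It rose by 2.55 (standard error 0.63, adjusted p = 0.0227), without overlap, with YS_01 well above YS_02 and YS_03, and it did not pass without YS_02 (adjusted p = 0.0806), YS_03 (adjusted p = 0.0599) or RS_03 (adjusted p = 0.0937). RS_03 was within 10% of the other RS libraries for this gene. LOC111308026 had 0.714, 0 and 0.106 FPKM at YS and 4.71, 2.71 and 3.66 at RS and rose by 1.90 (adjusted p = 0.0084), but not with a pseudocount of 5 (log2 fold change 0.72). It overlaps LOC111308014 on the opposite strand, a gene that rose by 3.61 (adjusted p = 0.000865), and the sources do not say whether strand was used in counting, so reads of this pair cannot be told apart. LOC111290112 had 1.69, 0 and 3.02 FPKM at YS and 7.54, 7.38 and 46.6 at RS, with RS_03 the highest library, and rose by 2.77 (adjusted p = 0.0283), but not without YS_02 (adjusted p = 0.117) or RS_03 (adjusted p = 0.0883). LOC111287425 was higher at YS, with 1.13, 7.13 and 14.2 FPKM against 0.628, 0.997 and 0.308 at RS, and did not pass (-1.99, adjusted p = 0.0572). LOC111315809 reached at most 0.142 FPKM and was not tested. With LOC111308014, these genes other than LOC111290112 and LOC111287425 lie within 17.9 kb on scaffold NW_019167827.1, from 3565731 to 3583629. Outside the MGL genes, cysteine synthase 2-like LOC111287927, which builds cysteine from sulfide, went from 2.79, 1.82 and 1.09 to 20.4, 17.31 and 16.6 FPKM and rose by 2.76 (adjusted p = 0.00134), and sulfate transporter 1.3-like LOC111294357 fell by 3.55 (adjusted p = 0.00267), from 21.7, 4.05 and 18.2 to 0.0412, 0.182 and 0.108 FPKM.

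Genes of sugars and starch went in several directions. Of 16 tested sugar genes 2 rose and 6 fell, or 2 rose and 4 fell without RS_03. Of all tested genes 2.89% rose and 9.36% fell, or 3.06% and 4.64% without RS_03. Beside the N3 transporter, LOC111287763, which the study names only a probable trehalose-phosphate gene, rose by 1.82 (adjusted p = 0.00782), at 0.554, 0 and 0 FPKM at YS and 3.07, 2.83 and 3.34 at RS. Of the same family as N3, SWEET10-like LOC111289849 fell by 4.79 (adjusted p = 0.00422), from 223, 27.1 and 19.3 to 1.12, 1.66 and 0.0777 FPKM. SWEET7-like LOC111290758 had 28.9, 2.82 and 2.66 FPKM at YS and was in no RS table. Its fall passed (adjusted p = 0.0218), but not without RS_03. It reached at most 0.0013 FPKM at MS and so entered the test through YS alone, and its fall is a description only. Of these 3 SWEET genes N3 was high at RS and the other two at YS, and YS_01 was the highest YS library for each. Fructose-bisphosphate aldolase 1 LOC111297280 of the chloroplast fell by 4.16 (adjusted p = 0.00086), from 35.04, 51.99 and 12.2 to 0.643, 0.613 and 0.666 FPKM, with 56.5, 55.2 and 55.5 FPKM at MS. Of 8 starch genes none rose and 1 fell (9.36% of all tested genes did), and none passed without RS_03 or with size factors. The gene that fell, beta-amylase 1 LOC111279622, which cuts maltose from starch, had 168, 28.9 and 48.5 FPKM at YS and 17.2, 18.5 and 10.1 at RS (-1.995, adjusted p = 0.0456), but did not pass without YS_01 (adjusted p = 0.0757), YS_03 (adjusted p = 0.0658), RS_01 (adjusted p = 0.0662), RS_02 (adjusted p = 0.0547) or RS_03 (adjusted p = 0.165), whereas a further beta-amylase 1 gene, LOC111306779, had 236, 83.05 and 35.9 FPKM at YS and 169.8, 167 and 272 at RS and did not pass (1.14).

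Of 5 ABC transporter genes, whose pumps move lipids, hormones and other metabolites across membranes, 3 rose and 1 fell, with or without RS_03. Of all tested genes 2.89% and 3.06% rose, and 9.36% and 4.64% fell. ABC transporter G family member 11-like LOC111316978, related to the exporters of cuticle lipids in Arabidopsis, had 0.0408, 0 and 0 FPKM at YS and 53.01, 47.03 and 7.07 at RS and rose by 4.77 (adjusted p = 0.0016). Members 31 LOC111301322 and 39-like LOC111311747 rose by 3.50 and 2.85 (adjusted p = 0.000631 and 0.026), the second of which did not pass without YS_02 (adjusted p = 0.1), RS_01 (adjusted p = 0.06) or RS_02 (adjusted p = 0.0536) or with the replicate number as a block (adjusted p = 0.0547). ABC transporter G family member 14-like LOC111286089 fell, with 12.5, 5.05 and 2.44 FPKM at YS and no listing at RS (adjusted p = 0.00569). It was in no MS table either and so entered the test through YS alone, and its fall is a description only. C family member 13 LOC111274386 did not pass (-1.44, adjusted p = 0.035).

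Among 8 phenylpropanoid, lignin and ester genes 2 rose and 2 fell, with or without RS_03. The shares of all tested genes were 2.89% that rose and 9.36% that fell, or 3.06% and 4.64% without RS_03. Beside the benzoyltransferase, shikimate O-hydroxycinnamoyltransferase-like LOC111274350, of the branch towards lignin, had 5.28, 0.0491 and 0.282 FPKM at YS and 22.1, 22.6 and 25.5 at RS and rose by 3.58 (adjusted p = 0.00467). Laccase-4-like LOC111301337, which polymerises lignin units, fell by 2.40 (adjusted p = 0.00183), from 5.35, 3.56 and 5.23 to 0.123, 0 and 0.09002 FPKM. Of 3 tested cytochrome P450 and glycosyltransferase genes, crocetin glucosyltransferase LOC111292230 rose by 3.23 (adjusted p = 0.016), from 0.126, 0 and 0 to 18.1, 19.9 and 1.32 FPKM, but not without YS_02 (adjusted p = 0.0586). UDP-glycosyltransferase 73C6-like LOC111311009 rose as well, from no YS listing to 3.22, 5.17 and 5.15 FPKM at RS (adjusted p = 0.00177), and the third was the abscisate glucosyltransferase. LOC111311009 reached at most 0.156 FPKM at MS and so entered the test through RS alone, and its rise is a description only. Of 7 calcium signalling genes none rose and 1 fell, the calcium permeable stress-gated cation channel LOC111278288 (-2.83, adjusted p = 0.0121), from 20.8, 23.7 and 62.6 to 5.72, 6.49 and 0.875 FPKM. Calmodulin-like protein 8 LOC111279922, the most abundant, did not pass (-1.77). The 1 of 7 lies near the 9.36% of all tested genes that fell. Of 21 U-box ubiquitin ligase genes 2 rose and 9 fell, or 2 and 5 without RS_03, against 9.36% and 4.64% of all tested genes that fell. Without YS_02 1 rose and 6 fell (all tested genes: 1.97% and 5.24%), while 14 fell without YS_01 (2478 of all 21598 tested genes). Protein 27-like LOC111299778 rose most, by 2.53 (adjusted p = 0.0106), from 4.49, 4.92 and 15.6 to 60.1, 61.5 and 26.1 FPKM, but not without YS_02 (adjusted p = 0.0509). U-box domain-containing protein 9-like LOC111314441 had 42.2, 14.03 and 11.2 FPKM at YS and 105, 110.1 and 114 at RS and rose by 2.47 (adjusted p = 0.00813), and protein 29-like LOC111315695 had 25.3, 49.8 and 49.7 and 3.49, 2.62 and 0.4396 FPKM and fell by 3.83 (adjusted p = 0.00126). Protein 19-like LOC111291258 fell by 3.56 from 49.4, 25.9 and 3.23 to 0.563, 0.678 and 0.325 FPKM (adjusted p = 0.0119), but not without YS_02 (adjusted p = 0.0547) or RS_03 (adjusted p = 0.0787). Of 7 receptor kinase and disease resistance genes 1 rose and 1 fell, against 2.89% and 9.36% of all tested genes. Leucine-rich repeat receptor-like protein kinase LOC111285675 fell by 2.50 (adjusted p = 0.00225), from 5.702, 10.5 and 5.81 to 0.473, 0.615 and 0.203 FPKM. Probable receptor-like protein kinase LOC111304064 rose by 1.54 (adjusted p = 0.0345), from 0.6696, 0.451 and 0.427 to 5.09, 4.72 and 1.42 FPKM, but not without YS_02 (adjusted p = 0.114), YS_03 (adjusted p = 0.0759), RS_01 (adjusted p = 0.124) or RS_02 (adjusted p = 0.119). Calmodulin-binding receptor-like cytoplasmic kinase 3 LOC111299024 did not pass (-1.29). Most lists were taken from gene names the study printed, many of them picked on these libraries, so no count is independent evidence of a direction.

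The lists differed in how far RS_03 stood from RS_01 and RS_02. The median log2 difference was -3.21 for XTH, -2.70 for pectin esterase, -1.69 for expansin and -1.54 for cellulose synthase genes, against -0.72 for all tested genes. It was -0.29 for heat shock, -0.14 for sulfur and -0.059 for sugar genes. These differences rest on 1 library and carry no test. XTH LOC111287953 had 41.3, 42.7 and 2.52 FPKM at RS against 60.7, 40.7 and 146 at YS. Its log2 fold change of -1.95 did not pass and became -0.75 without RS_03. Probable mannitol dehydrogenase LOC111317014, chosen after its values were seen, was in no YS table and had 35.4, 41.4 and 96.8 FPKM at RS, with RS_03 the highest library.

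**Figure D5:**
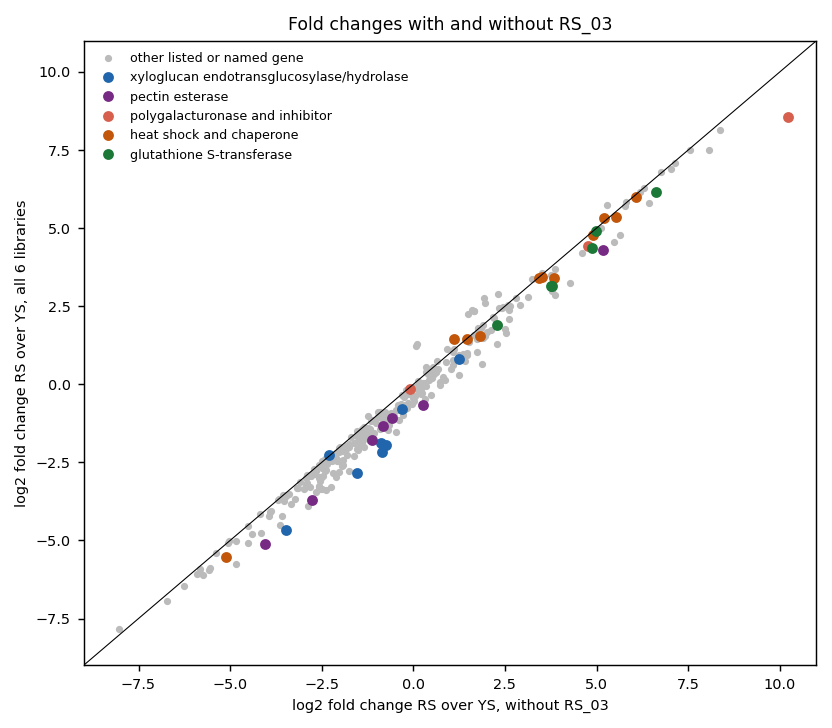
Log2 fold change from YS to RS with all 6 libraries (vertical) against that without RS_03 (horizontal) for the tested members of the gene lists and the other named genes, with 5 lists in colour and the line of equality. Most points lie below the line, XTH and pectin esterase genes farther than heat shock genes, and polygalacturonase-like LOC111311521 moves from 10.23 to 8.57.

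The levels at MS, set beside both stages, placed the rises in different intervals, as a description and with no test. Polygalacturonase-like LOC111311521 (1.88, 1.26 and 1.54 FPKM at MS), glutathione S-transferase LOC111288524 (3.04, 2.602 and 2.41 FPKM) and heat shock protein LOC111303688 (3.603, 2.82 and 3.87 FPKM) were still low at 120 days. By contrast, the N3 sugar transporter (834, 848 and 846 FPKM), NCED (169, 180.2 and 168 FPKM), the ERF LOC111306880 (534, 552 and 524 FPKM) and LOC111285498 (693, 731 and 709.7 FPKM) were at MS nearer to their mean at RS than to that at YS. The benzoyltransferase LOC111293555 (594, 587 and 578 FPKM) and LOB domain-containing protein 18 (847, 842 and 828 FPKM) were higher at MS than at RS. Mavicyanin-like LOC111292651 (146, 139 and 140.001 FPKM) and acyl-CoA-binding LOC111303063 (70.5, 66.2 and 59.6 FPKM) lay between the stages. The 10 largest falls among genes with a product name reached at most 4.98 FPKM in the MS libraries, so they were low at MS already.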

How the data were processed

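Poly(A) RNA of durian pulp had been sequenced as paired ends on an Illumina HiSeq after NEBNext Ultra library preparation. The authors deposited one gene table per library with FPKM and coverage as written by StringTie, together with a TPM column that was treated as a score and not used, since reference genes came on top of assembled loci that alone filled its total. The study's methods name HISAT2 before StringTie, whereas the submitters' processing notes name FastQC, Trimmomatic, Bowtie and TopHat without versions, so the mapper is not settled. The scaffold names are those of the deposited tables, and the build is not given in the sources used here beyond these names. Neither source says whether strand was used in counting.

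FPKM of the genes of the reference annotation were used, 39453 of which were above 0 in at least 1 library, and loci that StringTie had assembled anew were left out. A gene missing from a table was set to 0. Coverage served only to derive mapped bases. A gene was tested if 3 or more of all 9 libraries had it at 1 FPKM or above, which left 21598 genes. A gene that reached 1 FPKM at a single stage thus entered the test through that stage alone, and its call is a description only. FPKM hold no read counts, so log2(FPKM + 1) was fitted in limma (version 3.58.1, R version 4.3.3) to the 6 YS and RS libraries (two-sided, no covariates), and a gene passed at a log2 fold change beyond 1.5 with an adjusted p under 0.05, thresholds of the study's methods. The procedure was also run on simulated data with independent noise in each gene. These had no shift shared by the genes of a library, so they cannot test calls under the shift of RS_03. Tables and figures were made with Python 3.11.15, NumPy 2.4.6, pandas 2.3.3 and Matplotlib 3.10.9.

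Product names came from the study, which names 694 genes, 689 of them in the tables, and 606 with a product. Gene symbols were matched to a RefSeq gene table of another durian assembly (ASM4732523v1, 57388 genes), in which 87.3% of symbols were found, and this table was used for gene types only. The members, the gene lists and the rule for named genes were chosen with earlier results of these data known. Named were the 10 largest rises and falls among genes with a product name that passed with and without RS_03 and had a mean FPKM of at least 10 at either stage, 3 in each direction among genes without one, and the 5 most abundant genes per stage. In each list all members were named where at most 6 were tested, otherwise the 2 largest changes in each direction among those that passed and the most abundant member, and all methionine gamma-lyase, polygalacturonase and ethylene synthesis genes were named. Genes outside this rule, among them LOC111314102, LOC111306700, LOC111290894, LOC111291144, LOC111290758, LOC111287953, LOC111317014 and the heat shock genes LOC111299261, LOC111287629 and LOC111294546, were chosen after their values were seen. Alternatives were pseudocounts of 0.1 and 5, no filter, a filter on the 6 libraries, size factors, upper quartile scaling, each library left out, RS_03 left out together with size factors, the replicate number as a block, all 9 libraries in the fit and a mean-variance trend. The labels give no batch or date.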

Additional observations from a re-analysis of the deposited data

How the results depend on the processing

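FPKM without counts give no interval for a single library, so how far depth limits a weakly expressed gene is unknown. Of the named genes that were tested, 132 passed and none of these changed direction in the 17 alternatives, while 46 passed in every one. With a pseudocount of 5 some weakly expressed genes among them did not pass. Examples were LOC111308026 (log2 fold change 0.72), LOC111296235 (1.36), LOC111287763 (0.64), LOC111285675 (-1.16), LOC111301337 (-0.93) and LOC111286089 (-1.13). More abundant genes lost with it included LOC111280307 (adjusted p = 0.0925), LOC111304783 (0.0613) and LOC111308047 (0.0652). With a pseudocount of 0.1, LOC111280307 (0.0802), LOC111304783 (0.0531) and LOC111290112 (0.0606) did not pass. Losses given with single genes above are mainly those with a library left out. The count of rises was 341 with a pseudocount of 5, 300 without a filter, 1033 with size factors and 969 with upper quartile scaling, and from 426 to 848 with a library left out. The count of falls was 583 with a pseudocount of 5, 615 without a filter, 934 without RS_03 and with size factors, and from 1002 (without RS_03) to 2478 (without YS_01) with a library left out, with 1132 without YS_02. The cause was not tested. The median over all genes of the test, -0.35 on the log2 scale as reported, was -0.18 with a pseudocount of 5, -0.12 without a filter, -0.019 with size factors, -0.059 with upper quartile scaling, 0.0014 without RS_03 and with size factors, and from -0.48 to -0.085 with a library left out. With RS_01 and RS_02 averaged to 1 sample, an alternative chosen after seeing the data, 491 genes rose and 1870 fell.

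The labels do not say whether the replicate numbers pair the libraries. The deviations of same-numbered YS and RS libraries from their stage means correlated at -0.16, 0.08 and -0.11 across genes, and those of other pairs at -0.15 to 0.18. Deviations from a stage mean are tied to each other, and at RS the shift of RS_03 dominates them. These correlations therefore cannot settle a pairing. With the replicate number as a block, 595 genes rose and 1695 fell. Named genes that did not pass with it included LOC111280307 (adjusted p = 0.0795), LOC111279254 (0.0602), LOC111305273 (0.0710), LOC111279622 (0.0586), LOC111304064 (0.0516) and LOC111291563 (0.0748).

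Of genes that had not passed, 15 changed sign in the log2 fold change. LOC111278395 (-0.41 as reported) had 0.035 with size factors, 0.12 without RS_03 and with size factors and -1.75 to 1.39 with a library left out. LOC111303852 (-0.55 as reported) had 0.068 without RS_03 and with size factors and -1.10 to 0.53 with a library left out. LOC111306700 (0.15 as reported) had -0.21 with RS_01 and RS_02 averaged and -0.22 to 0.86 with a library left out. LOC111306922 (0.65 as reported) had -0.27 to 1.87 with a library left out. LOC111311552 (-0.16 as reported) had -0.46 to 0.039 with a library left out. LOC111312703 (-0.18 as reported) had 0.045 with size factors, 0.018 with upper quartile scaling, 0.20 without RS_03 and with size factors and -0.45 to 0.14 with a library left out. LOC111313897 (-0.32 as reported) had 0.27 without RS_03 and with size factors and -0.95 to 0.59 with a library left out. LOC111317524 (-0.18 as reported) had 0.14 with size factors, 0.10 with upper quartile scaling and -0.41 to 0.20 with a library left out. LOC111274382 (-0.36 as reported) had 0.061 with size factors, 0.010 with upper quartile scaling and -1.03 to 0.027 with a library left out. LOC111282309 (-0.44 as reported) had 0.0090 with size factors and 0.10 without RS_03 and with size factors. LOC111284718 (-0.36 as reported) had 0.096 with size factors and 0.042 with upper quartile scaling. LOC111287069 (0.38 as reported) had -0.028 to 0.72 with a library left out. LOC111294910 (0.063 as reported) had -0.23 with a pseudocount of 0.1, -0.23 with RS_01 and RS_02 averaged and -0.47 to 0.72 with a library left out. LOC111296009 (-0.063 as reported) had 0.19 with size factors, 0.16 with upper quartile scaling, 0.42 without RS_03 and with size factors and -0.42 to 0.35 with a library left out. LOC111296866 (-0.71 as reported) had 0.34 without RS_03 and with size factors and -1.91 to 0.99 with a library left out.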

Other observations

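A set of genes was listed at one stage only. In no YS table but at 1 FPKM or more in every RS library were 9 genes, and the reverse held for 23 genes. These were chosen after their values were seen. Of the first, probable mannitol dehydrogenase LOC111317014 (35.4, 41.4 and 96.8 FPKM) was the highest at RS, and it reached at most 0.227 FPKM at MS. LOC111283761, without a product name, had 4.15, 4.73 and 8.31 FPKM at RS and was already at 4.40, 2.92 and 2.68 FPKM at MS. Of the second, LOC111287730, without a product name, had 62.6, 25.9 and 19.3 FPKM at YS. The non-specific lipid-transfer protein 3-like gene LOC111307200, of a family that moves lipids to the cuticle, was uneven, with 1.59, 97.6 and 7.06 FPKM at YS, and its fall did not pass without YS_03 (adjusted p = 0.0562) or RS_03 (adjusted p = 0.149). It reached at most 0.719 FPKM at MS and so entered the test through YS alone.

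By the gene types of the other durian assembly, 480 of 17045 tested protein-coding genes rose (2.82%) and 1641 fell (9.63%). Of 234 tested long non-coding RNA genes 10 rose (4.27%) and 9 fell (3.85%). Of 1718 tested transcribed pseudogenes 52 rose (3.03%) and 126 fell (7.33%), and of 244 other pseudogenes 16 rose (6.56%) and 17 fell (6.97%). Another 2325 tested genes had no match, of which 62 rose (2.67%) and 225 fell (9.68%). Of all tested genes 2.89% rose and 9.36% fell. The types come from another assembly, and the differences in share were not tested.

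LOC111289173, without a product name, followed the run of neighbours named in the report, with 1886, 298 and 578 FPKM at YS and 2597, 2744 and 10098 at RS. LOC111289175 had 1789, 322 and 956 FPKM at YS and 915, 818 and 9466 at RS. Both were highest in RS_03, and among YS libraries both were highest in YS_01.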
